A study of Rattus norvegicus with 4 samples.

Results

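The genes described here are 8 genes of the olfactory bulb and its input, namely Cdhr1, Tbx21, Nmb, Shisa3, Lhx5, Doc2g, Omp and Th. They were chosen from the values of these same libraries, BPA against control, so their differences in that contrast are given as a description with no test. Of the 14004 genes with a symbol, 7 of the 8 were listed in all 4 libraries, Omp was listed in the female libraries only, and 2 of the 8 (Cdhr1 and Nmb) reached a mean FPKM of at least 1. FPKM counts the fragments of a transcript relative to its length and to all fragments of the library. The study asked how prenatal exposure to bisphenol A (BPA), a plastics chemical, changes the transcriptome of the prefrontal cortex of newborn rats of each sex. Polyadenylated RNA was sequenced in 1 library for each combination of sex and treatment, so that control male stands against BPA male and control female against BPA female. Values given in a row of 4 follow this order. Wistar dams (Wistar Furth in the paper) received by gavage, daily from gestational day 1 to parturition, either 5000 µg of BPA per kg of maternal body weight or the vehicle, ethanol in corn oil. The pups were taken on postnatal day 1 by the labels and on days 1 to 2 by the paper, and the tissue is called frontal cortex in the labels. The methods state that the meninges were removed and that 3 pups per sex and treatment were used, while pooling of pups in a library is not stated. With 1 library per group no comparison within a sex has a replicate check, and each compares those libraries, not the conditions.

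The olfactory bulb lies in front of the frontal cortex and is the relay for smell. Sensory neurons of the nose send their axons to its glomeruli, where mitral and tufted cells, its glutamatergic projection neurons, receive them and pass the signal on to the olfactory cortex. Local interneurons, some of them dopaminergic, act on this relay, and ensheathing glia accompany the incoming axons.

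The members do not all mark projection neurons. Cdhr1, Tbx21, Nmb, Shisa3, Lhx5 and Doc2g are known from mitral and tufted cells, whereas Omp marks mature sensory neurons of the nose and Th marks dopaminergic interneurons in the bulb. The depth recovered from the steps of the FPKM was 9244750 and 9182500 fragments in the male control and BPA libraries and 8935000 and 8982250 in the female ones. Fragment numbers below are estimates from these depths. Intervals are at 95% and cover counting error only. Log2 ratios are of FPKM after 0.5 was added to each value, a scale that understates the change of scarce genes.

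Cdhr1 (NCBI Gene 93662) encodes a cadherin-related membrane protein, known from photoreceptors as well as from mitral and tufted cells. Its FPKM was 41.1 and 10.8 in the male control and BPA libraries and 44.5 and 9.29 in the female ones, from 1612, 420, 1686 and 354 fragments. Both control libraries were therefore high and both BPA libraries low, with no overlap of their counting limits. The control level was 3.82 times the BPA level in males (exact conditional interval 3.42 to 4.25) and 4.79 times in females (4.27 to 5.38). The log2 ratio was -1.88 (-2.04 to -1.73) in males and -2.20 (-2.36 to -2.04) in females. Among all genes of each pair, this placed Cdhr1 at rank 10 from the lowest of 13492 in males and at rank 9 of 13541 in females. In bulk tissue, fewer cells of a type and less RNA per cell cannot be told apart.

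Tbx21 (NCBI Gene 303496) encodes a T-box transcription factor of mitral and tufted cells that is also the master regulator of type 1 helper T cells. Its FPKM was 1.74 in control male, at the lowest listed value of 0.01 in BPA male, and 0.85 and 0.05 in the female libraries. These values correspond to 38, 0, 18 and 1 fragments, so both control libraries were above both BPA libraries. In males the level was at least 9.74-fold lower in the BPA library by the exact conditional limit, which takes in the counting error of both libraries. A count of 0 there allows 3 fragments, or 0.138 FPKM. In females the control level was 17.0 times the BPA level, with an interval of 2.86 to 754 because 1 fragment stood on the BPA side. The log2 ratio was -2.16 (-2.53 to -1.60) in males and -1.30 (-1.76 to -0.65) in females. The control libraries also differed from each other, with a log2 ratio of female to male of -0.73 (-1.29 to -0.15).

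Shisa3 (NCBI Gene 498356) belongs to the Shisa family of transmembrane proteins, of which some hold back Wnt and FGF receptors inside the cell. It had 1.35 FPKM in each control library, 0.35 in BPA male and 0.10 in BPA female. The fragments numbered 27 and 7 in the male control and BPA libraries and 26 and 2 in the female ones. The BPA libraries lay below the controls in both sexes, by a log2 ratio of -1.12 (-1.70 to -0.45) in males and -1.62 (-2.11 to -0.95) in females. The control level was 3.86 times the BPA level in males (1.63 to 10.4) and 13.5 times in females (3.27 to 114).

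Nmb (NCBI Gene 499194) encodes neuromedin B, a bombesin-like peptide. Its FPKM was 2.52 and 1.99 in the male control and BPA libraries and 3.16 and 0.18 in the female ones, from 14, 11, 17 and 1 fragments. The BPA female library was the lowest, with an upper counting limit of 1.03 FPKM, just above the lower limit of 0.997 in BPA male and below those of both controls. The log2 ratio was -0.28 (-1.26 to 0.71) in males and -2.43 (-3.18 to -1.10) in females, where Nmb was at rank 5 from the lowest. The female ratio minus the male ratio was -2.15, and an absolute difference of at least 1 was found for 297 of the 13029 genes listed in all libraries (2.28%). The difference of the ratios was not tested, since a fit with that term leaves no residual degree of freedom. It rests on 1 fragment in BPA female, a value that also entered the choice of the members, so nothing is read from this share.

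Lhx5 (NCBI Gene 124451) encodes a LIM homeodomain transcription factor, which Cajal-Retzius cells of the cortical surface also use. It had 0.41 and 0.29 FPKM in the male control and BPA libraries and 0.48 and 0.24 in the female ones, from 7, 5, 8 and 4 fragments. The log2 ratios of -0.20 (-0.90 to 0.53) in males and -0.41 (-1.09 to 0.35) in females had intervals that included 0. Doc2g (NCBI Gene 293654), a member of the double C2 domain family, was the one member with a higher value in BPA in both pairs. Its FPKM was 0.38 and 0.69 in the male control and BPA libraries and 0.31 and 0.47 in the female ones, from 5, 9, 4 and 6 fragments. Its log2 ratios of 0.44 (-0.42 to 1.22) and 0.26 (-0.60 to 1.06) also had intervals that included 0.

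Omp (NCBI Gene 24612), the olfactory marker protein of sensory neurons, had 0.23 FPKM in control female, which is 1 fragment, and 0.01 in BPA female. A single fragment allows no comparison. In the RefSeq table Omp lies within the gene Capn5, Lhx5 overlaps a long non-coding gene and Nmb a pseudogene, and use of strand in the counting is not given in the sources used here, so fragments of overlapping genes could be shared. Th (NCBI Gene 25085) encodes tyrosine hydroxylase, the rate-limiting enzyme of catecholamine synthesis. It had 0.89 and 0.25 FPKM in the male control and BPA libraries and 0.72 and 0.39 in the female ones, from 14, 4, 11 and 6 fragments. The male log2 ratio was -0.89 (-1.55 to -0.11), and the female ratio of -0.46 (-1.18 to 0.33) had an interval that included 0.

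**Figure D1:**
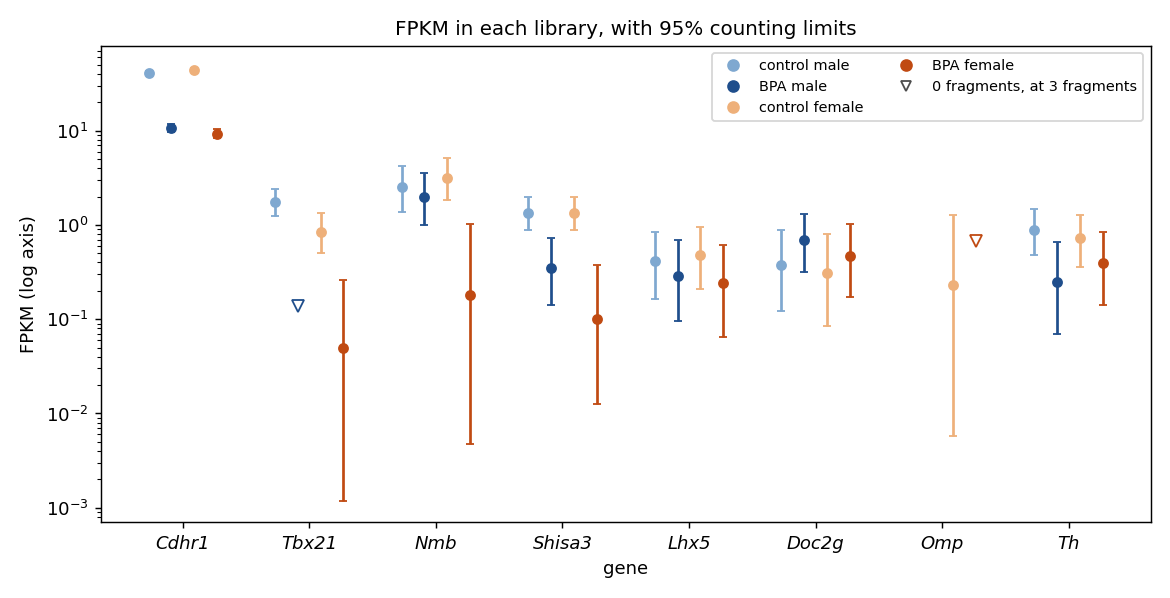
FPKM (log axis) of the 8 genes in each of the 4 libraries, where points are the deposited values, bars are 95% counting limits and open triangles mark a library with 0 fragments at the level of 3 fragments. Cdhr1 stands above the other members in every library and is at 10.8 FPKM in BPA male and 9.29 in BPA female.

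By mean FPKM of the control libraries, which is adjusted for length, the order was Cdhr1 (42.8), Nmb (2.84), Shisa3 (1.35), Tbx21 (1.29), Th (0.805), Lhx5 (0.445) and Doc2g (0.345). Cdhr1 was above all others by far more than counting error in both control libraries. From Nmb downward, neighbours in this order had overlapping counting limits in both control libraries. Summed over the members, the level was 48.4 and 14.3 FPKM in the male control and BPA libraries and 51.6 and 10.7 in the female ones, most of it Cdhr1 and with Omp in the female sums only.

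Of the 7 members listed in all libraries, 6 had a log2 ratio below 0 in males, as 55.7% of all genes did, and 6 in females, against 58.8%. Omp is left out of this count. A log2 ratio of -1 or below was found for 3 of the 7 male and 4 of the 8 female values, where 1.18% and 2.21% of all genes were that low. For 3 of the 7 listed in all libraries (Cdhr1, Tbx21 and Shisa3) it was found in both pairs, against 0.530% of all genes. With a pseudocount of 1 in place of 0.5 it was found in both pairs for Cdhr1 alone, against 0.269% of all genes, as the ratios in males and females were then -1.45 and -0.82 for Tbx21 and -0.80 and -1.10 for Shisa3. No member had a log2 ratio of 1 or above in either pair, as 0.348% of all genes did in males, 0.266% in females and 0.0461% in both. Over the 7 members listed in all libraries, the median log2 ratio was -0.89 in males and -1.30 in females, also when a library with 0 fragments was set to 3. With Omp, whose female ratio rests on 1 fragment, the female median was -0.92 (-0.88 with 0 set to 3). Over all genes the median was -0.04 in males and -0.06 in females. Since the members were chosen on this contrast, nothing is read from these shares.

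**Figure D2:**
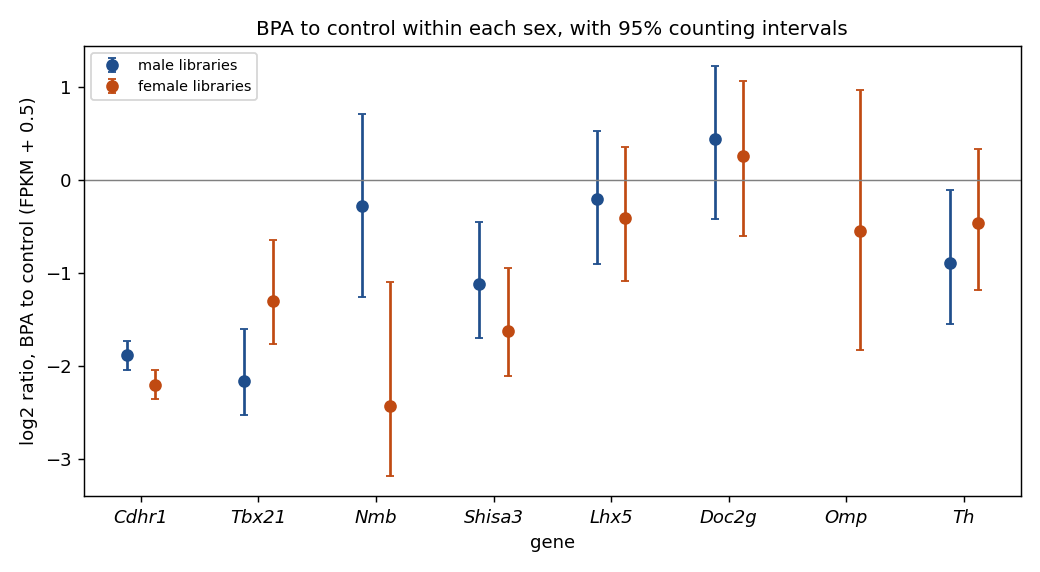
Log2 ratio of BPA to control (FPKM + 0.5) of the 8 genes in the male and the female libraries, with bars for 95% counting intervals. The intervals of Cdhr1, Tbx21 and Shisa3 lie below 0 in both sexes, that of Nmb only in females and that of Th only in males.

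The difference between the sexes was not itself used to choose the members, but it comes from the same libraries as the contrast that was. It was fitted for the 2 members that reached a mean FPKM of 1. For Nmb the low BPA female value enters both contrasts, so its sex difference is not free of that choice. In limma with treatment as a covariate and Benjamini-Hochberg adjustment, 11 of 10629 genes (0.103%) differed between female and male. Cdhr1 did not pass, with a log2 difference of female minus male of -0.05 (standard error 0.094, adjusted p = 0.951). This is a mean over the treatments, and the log2 ratio of female to male was 0.11 (0.01 to 0.21) between the control libraries and -0.20 (-0.40 to -0.01) between the BPA libraries. Nmb, with an unadjusted p of 0.0666, did not pass either, at -0.80 (standard error 0.40, adjusted p = 0.639, and 0.532 to 1.000 under other settings). Its ratios also had opposite signs, at 0.28 (-0.64 to 1.19) between the control libraries and -1.87 (-2.71 to -0.50) between the BPA libraries. Between the control libraries, 0 of 7 members were past a log2 ratio of 1 or -1 (female to male), against 0.629% of all genes. Between the BPA libraries, 1 of 7 was, against 0.814%, and this was Nmb. As its BPA female value also entered the choice of the members, nothing is read from this.

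Other genes of mitral and tufted cells were compared with the sexes as replicates of a treatment, in limma with Benjamini-Hochberg adjustment over 10629 genes. By the paper's numbers of litters and pups, the males and females of a treatment would share litters. The 2 libraries of a treatment are then not independent, which holds for each call below. The marker lists were made with earlier results of these data known, so calls within a list are a description and not independent support. The limma fit called 403 genes lower (3.79%) and 74 higher (0.696%) in BPA. No gene of the 13029 listed in all libraries passed without the filter on low values (2410 at an unadjusted p under 0.05), which holds for each call below. With sex as a further term, which pairs the libraries of a sex, 867 passed, 667 of them lower and 200 higher. Without control female 227 genes passed. Leaving out a library leaves its treatment with a single one, so that the spread then comes from the 2 libraries of the other treatment alone. Of 8 mitral and tufted genes tested, 2 fell and 1 rose. The vesicular glutamate transporter Slc17a7 had 51.1, 30.0, 57.0 and 32.2 FPKM (male control, male BPA, female control, female BPA) and fell by 0.79 on the log2 scale (standard error 0.079, adjusted p = 0.000924). The related transporter Slc17a6 fell by 0.71 (standard error 0.11, adjusted p = 0.00705). Both transporters are also used by cortical and other excitatory neurons. Pcp4, a calmodulin-binding protein and the most abundant gene of the list, rose by 0.55 (standard error 0.082, adjusted p = 0.00578). With each library left out in turn, and the spread thus taken from 1 treatment, the adjusted p was 0.0242 or below for these 3 genes.

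The other genes of the list did not pass with treatment alone, while the fit with treatment and sex also called 2 of them, Ntng1 and Spp1, both lower. Ntng1, a netrin-like adhesion protein, had a log2 difference of -0.90 (limma adjusted p = 0.0519, 0.0462 with treatment and sex, 0.0497 with a pseudocount of 1). Spp1, the secreted protein osteopontin, had one of -1.13 (limma adjusted p = 0.0711, 0.0126 with treatment and sex), and it passed without BPA female (0.00661) and without control male (0.0418). For Ntng1, the paper also reported a reduction by quantitative PCR, with the sexes combined and in females. The T-box factor Tbr1 (0.06), Reln (0.07) and Cck (0.12) had differences near 0. Each is a mean of pairs with opposite signs. The male and female log2 ratios were 0.17 and -0.04 for Tbr1, 0.24 and -0.11 for Reln, and 0.33 and -0.09 for Cck. Lhx1, a LIM homeodomain factor of mitral cells, was below the filter, with 0.69 and 0.35 FPKM in the male control and BPA libraries and 0.77 and 0.36 in the female ones. Barhl2 was below it too, and Eomes and Lbhd2 were not listed under a symbol. Over the 10 genes listed, the median log2 ratio was -0.43 in males and -0.48 in females. Their summed FPKM was 276 and 298 in the male control and BPA libraries and 310 and 304 in the female ones.

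Among markers of bulb interneurons, which are mostly shared with other GABA neurons of the forebrain, 5 of 15 tested genes fell and 0 rose. Calb2, the calcium-binding protein calretinin, had 40.0 and 17.2 FPKM in the male control and BPA libraries and 34.0 and 14.4 in the female ones. It fell by 1.20 on the log2 scale (standard error 0.11, limma adjusted p = 0.000564) and was the only gene of the list past a log2 ratio of -1 in both pairs. Sp8, a zinc finger factor of bulb interneurons, fell by 0.80 (adjusted p = 0.0182). Gad1, Calb1 and Dlx1 also passed, with log2 differences of -0.36, -0.39 and -0.38 (adjusted p = 0.0353, 0.0398 and 0.0287). Gad1 and Calb1 did not pass with any of the 4 libraries left out, with an adjusted p of 0.0524 to 0.133 for Gad1 and 0.0543 to 0.130 for Calb1. Dlx1 did not pass without BPA male (0.0821), without control male (0.0846) or without control female (0.0940), and Sp8 not without control female (0.0970). Calb2 passed with each library left out. Etv1 passed only without BPA male (0.0215, against 0.136 with all libraries). Gad2, Slc32a1 and Meis2, the most abundant gene, had log2 differences of 0.05, 0.00 and 0.00. Ddc, which acts after Th in dopamine synthesis, had 0.46, 0.22, 0.27 and 0.20 FPKM (male control, male BPA, female control, female BPA). The summed FPKM of the list was 373, 330, 368 and 316 in that order, and Tshz1 was not listed.

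Of the markers of olfactory sensory neurons, 4 of 13 were tested, and limma called 0 of them (1 at an unadjusted p under 0.05). The most abundant was Gnal, which striatal neurons also express, with a log2 difference of 0.21 (adjusted p = 0.184). The defining channel and receptor transport genes Cnga2, Ano2, Rtp1 and Rtp2 were not listed, and Cnga4 and Cngb1 were at 0.14 FPKM or below in every library. The list summed to 54.2, 55.6, 52.6 and 60.7 FPKM (male control, male BPA, female control, female BPA). Of the markers of olfactory ensheathing glia, 2 of 7 tested fell. Frzb, a secreted Wnt antagonist, had 4.76, 1.45, 4.55 and 0.78 FPKM and fell by 1.71 (standard error 0.23, adjusted p = 0.00394). The count of 2 was 1 without control female or without control male, and 4 with treatment and sex. Npy rose without BPA male (adjusted p = 0.00603, against 0.280 with all libraries). Sox10 had a difference of 0.15, Foxd3 was not listed, and Fabp7, an abundant radial glia gene (limma adjusted p = 0.0655, 0.00328 with treatment and sex and 0.00551 without BPA male), led the list's sums of 665, 578, 641 and 540 FPKM.

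**Figure D3:**
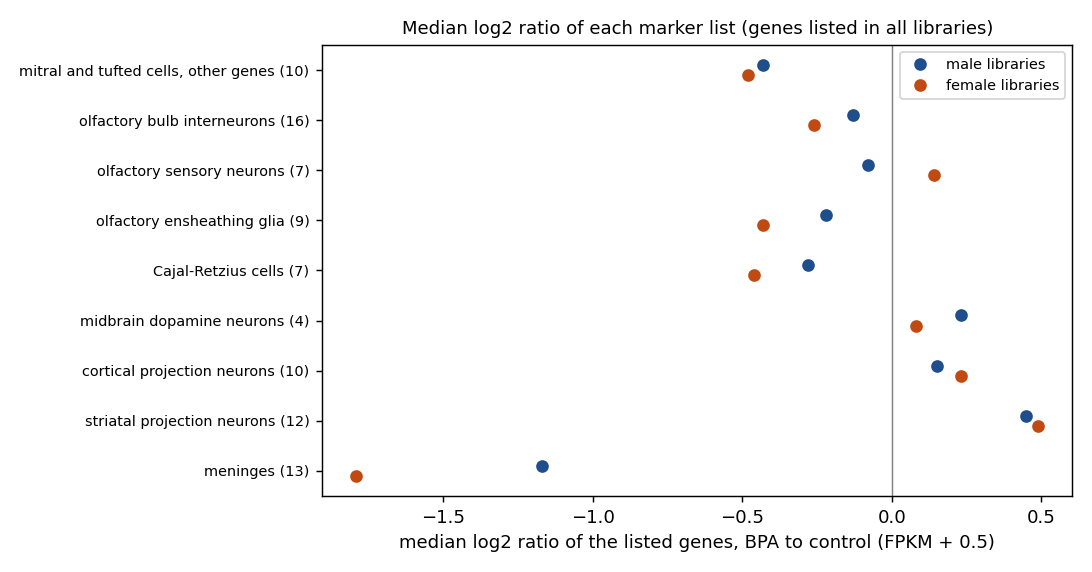
Median log2 ratio of BPA to control (FPKM + 0.5) over the genes of each marker list, in the male and the female libraries, with the number of genes listed in all libraries in brackets. The meninges lie lowest at -1.17 and -1.79, and the striatal projection neurons highest at 0.45 and 0.49.

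Cells outside the bulb can also express members, and their markers are given as counts and sums over the list. Of the Cajal-Retzius genes, another source of Lhx5, 1 of 5 tested fell, and this was again Calb2. Of the 7 listed, 6 were lower in both pairs, all but Reln, and the median log2 ratio was -0.28 in males and -0.46 in females. Of all genes, 55.7% were below 0 in males and 58.8% in females, and the share below 0 in both pairs is not given here. Reln had a log2 difference of 0.07, Tp73 one of -0.32, Ebf3 one of -0.37 and Cacna2d2 one of -0.23 (limma adjusted p = 0.768, 0.521, 0.428 and 0.245). Lhx1 and Ebf2 were below the filter, Ndnf was not listed, and the sums were 88.2, 67.5, 92.2 and 66.3 FPKM (male control, male BPA, female control, female BPA). Of the midbrain dopamine genes, another source of Th, limma called 0 of 2 tested (0 at an unadjusted p under 0.05). Pitx3, En1, Foxa2 and Lmx1b were not listed, Nr4a2 was the most abundant, and the sums were 9.54, 11.7, 11.6 and 11.6 FPKM. Of the 11 genes of T and NK cells, another source of Tbx21, 7 were not listed, among them Cd3e, Cd3d and Ncr1. Of the other 4, Il2rb and Cd2 were listed in the male libraries only, with sums of 0.13 and 0.10 FPKM in control and BPA. Cd3g and Cd8a were listed in the female libraries only, with sums of 0.28 and 0 FPKM, so these sums cover different genes in each sex. In the controls Tbx21 had 1.74 FPKM in males and 0.85 in females.

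The labelled tissue was checked by genes of cortical projection neurons. Neurod6, a proneural factor of excitatory cortical neurons, had 233, 255, 216 and 231 FPKM (male control, male BPA, female control, female BPA). This level was above that of Cdhr1 in every library. Of 10 genes tested, 2 rose, Neurod2 by a log2 difference of 0.50 (standard error 0.070, limma adjusted p = 0.00439) and Tle4 by 0.33 (adjusted p = 0.0328). Tle4 did not pass without control female (0.179), without BPA male (0.0732) or without BPA female (0.0691). The fit with treatment and sex called 3. Cux1 and Emx1 were not listed under a symbol, and the sums were 700, 775, 678 and 741 FPKM.

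Genes of striatal projection neurons and of the meninges differed between the treatments as well. Of 12 striatal genes tested, 5 rose and 0 fell. Rxrg, a retinoid receptor, had 6.11 and 24.6 FPKM in the male control and BPA libraries and 8.0 and 26.2 in the female ones, a log2 difference of 1.79 (standard error 0.13, limma adjusted p = 0.000182). Ebf1, a factor of striatonigral neurons, had a difference of 1.12 (adjusted p = 0.00948). The dopamine receptor Drd2, the opioid precursor Penk and the most abundant gene, Ppp1r1b, rose by 0.84, 0.64 and 0.45, the last not without BPA female (adjusted p = 0.137) or without control male (0.103). The fit with treatment and sex called 7. Without BPA male it was also 7, with Tac1 (0.0422) and Pde10a (0.0410) added. The sums were 118, 170, 119 and 186 FPKM, with every gene listed.

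A log2 ratio below 0 was found for 55.7% of all genes in males and 58.8% in females, with no share given for both pairs together. Of 12 meningeal genes tested, 11 fell, and all 13 were lower in both pairs, in a list made with earlier results of these data known. Ptgds, the prostaglandin D synthase of the leptomeninges and the most abundant of them, had 214 and 109 FPKM in the male control and BPA libraries and 320 and 66.9 in the female ones. It fell by 1.61 on the log2 scale (standard error 0.21, limma adjusted p = 0.00358). The fibrillar collagen genes Col1a1, Col1a2 and Col3a1 fell too, with log2 differences of -1.51, -1.47 and -1.44. Foxc1 did not pass (-0.77, limma adjusted p = 0.0553, 0.0362 with treatment and sex), and Slc47a1 was below the filter. Crabp2 passed (0.0374), but not without BPA female (0.0762) or without control female (0.0918). The summed FPKM was 497 and 228 in the male control and BPA libraries and 650 and 158 in the female ones, so the meningeal and the Cdhr1 levels were both low in the BPA libraries. For all these lists, their part in the members' result was not tested.

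The genes whose pattern over the 4 libraries was nearest to that of Cdhr1 were sought among 10628 genes by Euclidean distance of centred log2 values, whose median was 2.01. The nearest was Cpa3, a carboxypeptidase of mast cells, at 0.13. Its FPKM was 3.21 and 0.55 in the male control and BPA libraries and 3.56 and 0.48 in the female ones. Igf2, a growth factor of the meninges list, followed at 0.23, and then the connexin genes Gjb2 (0.34) and Gjb6 (0.42), the claudin Cldn11 (0.45) and Frzb (0.46). Gtf2a2 (0.50), Mcpt1l1 (0.51) and Fxyd1 (0.53) were also among the 10 nearest, with Gtf2a2 at the lowest listed value of 0.01 FPKM in both BPA libraries. As Cdhr1 was chosen on its low BPA values in these same libraries, genes near it share that pattern by construction. Nothing is read from which genes they are. Nmb was the one other member with a mean FPKM of at least 1, and it was at rank 292 with 1.37. The remaining members were below that level and were not in this search.

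The starts of the genes with a log2 ratio of -1 or below in both pairs (pseudocount of 0.5) are shown to let their promoters be compared. RefSeq promoters of the assembly GRCr8, from 250 bases before to 50 after each start, matched 6 of the 8 members (Cdhr1, Tbx21, Nmb, Shisa3, Doc2g and Th). The homeodomain core TAAT, or ATTA on the other strand, was in 4 of these 6 (Cdhr1, Tbx21, Shisa3 and Th), and in 60.6% of all 33469 promoters. The T-box motif AGGTGT, or ACACCT, was in 1 of 6 (Doc2g) and in 13.6% of all. The motif CCCNNGGG was in 3 of 6 (12.4% of all) and the E-box CANNTG in 6 of 6 (72.1%). A match is a description of letters and not a bound site. The promoters of Cdhr1 (chr16:12883530-12883829), Tbx21 (chr10:82595204-82595503) and Shisa3 (chr14:40922086-40922385), all on the minus strand, are printed 5′ to 3′ with TAAT and ATTA in capitals.
Cdhr1: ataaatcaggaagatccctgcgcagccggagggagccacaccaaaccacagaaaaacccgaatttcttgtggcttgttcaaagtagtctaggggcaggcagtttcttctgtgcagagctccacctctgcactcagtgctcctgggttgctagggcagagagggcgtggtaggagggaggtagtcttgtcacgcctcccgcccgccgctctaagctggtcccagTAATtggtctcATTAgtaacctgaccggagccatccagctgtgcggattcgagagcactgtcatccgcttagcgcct
Tbx21: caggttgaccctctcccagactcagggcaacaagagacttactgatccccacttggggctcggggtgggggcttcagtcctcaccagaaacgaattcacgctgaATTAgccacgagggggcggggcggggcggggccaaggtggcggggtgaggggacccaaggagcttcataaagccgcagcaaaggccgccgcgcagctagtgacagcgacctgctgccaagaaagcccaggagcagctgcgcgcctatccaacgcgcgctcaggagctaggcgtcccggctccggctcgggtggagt
Shisa3: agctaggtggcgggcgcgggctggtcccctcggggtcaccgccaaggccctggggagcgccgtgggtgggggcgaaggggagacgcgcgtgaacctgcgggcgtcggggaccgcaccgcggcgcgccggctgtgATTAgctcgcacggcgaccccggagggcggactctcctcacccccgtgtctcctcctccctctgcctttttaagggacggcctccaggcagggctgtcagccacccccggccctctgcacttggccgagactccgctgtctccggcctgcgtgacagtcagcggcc
Cdhr1 held 2 of these cores, while Tbx21 and Shisa3 held 1 each.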

How the data were processed

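The deposited values are FPKM, which the authors made, per the paper's methods and the submitters' processing notes, by mapping reads to the rat genome (rn6) and calculating expression with RSEM. HISAT and Bowtie2 are also named there, without versions. Values have 2 decimals, and 0.01, the lowest, was taken as 0. The depth of a library was the total at which FPKM multiplied by the length less 60 bases lay nearest to whole fragments, and 90.0 to 92.9% of scarce transcripts came within 0.1 of one (20% by chance). The recovery was tested on simulated data, with a largest error of 0.14%.

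Each pair of libraries was described by log2((BPA + 0.5)/(control + 0.5)), with Poisson limits combined into intervals, and genes past an absolute value of 1 were counted. Fold intervals are exact conditional binomial (Clopper-Pearson). For genes other than the members, the sexes served as replicates in limma (version 3.58.1, under R 4.3.3), run with a trend on log2(FPKM + 0.5), for genes with a mean FPKM of at least 1 and Benjamini-Hochberg adjustment at 0.05. That fit has 2 residual degrees of freedom and the fit of sex with treatment has 1. The spread behind these p-values is that between libraries of different pups and, with treatment alone, of different sex. The males and females of a treatment would share litters by the paper's numbers, while the treatments differ in litter. This spread therefore need not hold the variation between litters.

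Genes were named by rule: the members, from each of 10 marker lists those past a log2 ratio of 1 in the same direction in both pairs and the 3 most abundant in controls, and the 10 genes nearest to Cdhr1. Other listed genes in the text were chosen after their values were seen. Some genes that the rule takes are not reported here. The lists are mitral and tufted cells, bulb interneurons, olfactory sensory neurons, olfactory ensheathing glia, Cajal-Retzius cells, midbrain dopamine neurons, T and NK cells, cortical projection neurons, striatal projection neurons and meninges. The members and lists were chosen with earlier results of these data known. Alternatives were other pseudocounts, centring on the median, each row of the tables on its own, other filters, other covariates and each library left out. Transcripts without a symbol were used only there, so a marker gene called not listed is one that was absent under its symbol. Gene neighbours and promoters came from RefSeq (GRCr8). Ratios and intervals were computed in Python 3.11.15 (scipy 1.17.1, numpy 2.4.6, pandas 2.3.3), and figures were drawn with matplotlib 3.10.9.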

Additional observations from a re-analysis of the deposited data

Results flagged for a closer look

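The naming rule took 52 genes, members included. Of these, 7 had log2 ratios of BPA to control of opposite sign in the male and the female libraries. The share was 32.5% of the 13029 genes listed in all libraries. The rule favours equal signs, as it takes genes past 1 in the same direction in both pairs and genes nearest to Cdhr1. The number of named genes with opposite signs is therefore not comparable with that share. Genes chosen after their values were seen are outside this count, and Cck, Sox10 and Slc32a1 among them also had opposite signs. The difference of the ratios, female minus male, was -0.21 for Tbr1, -0.06 for Meis2, 0.29 for Ric8b and 0.59 for Npy. It was -0.35 for Reln, -0.40 for Nr4a2 and -0.19 for Lmo4. None of these differences was tested, and no member was among them.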

How the results depend on the processing

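With 1 library per group, counting error is the only error available within a sex, and members other than Cdhr1 rest on at most 38 fragments in a library. The pair counts moved most with the pseudocount. Genes past an absolute log2 ratio of 1 numbered 206 between the male libraries, 1070 with a pseudocount of 0.1, 85 with 1, 726 over each row of the tables and 124 among genes with a mean FPKM of at least 1. Between the female libraries they numbered 335, and 1362, 169 and 878 under the first 3 of these settings. Over each row, 295 were higher and 431 lower in males, and 280 and 598 in females. Centring on the median left both counts within 1.5 times.

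Limma called 477 genes between the treatments, 74 over each row, 0 without the filter on low values, 867 with treatment and sex, and 227 to 465 with a library left out, lowest without control female. Between the sexes it called 11, and 2 over each row, 2 without the filter (756 at an unadjusted p under 0.05) and 2 with sex alone. The cause was not tested. The fit of sex was not run without a library, since no residual degree of freedom is left. With each library left out in turn, the log2 difference ranged across 0, from -0.13 to 0.26 for Reln, -0.03 to 0.03 for Meis2, -0.02 to 0.14 for Adcy3, -0.09 to 0.17 for Ric8b, -0.04 to 0.33 for Nr4a2 and -0.13 to 0.08 for Lmo4. None of these had passed. Of the members' log2 ratios, 40 of the values under other settings were within the counting interval and 5 outside it, all of Tbx21, Nmb and Shisa3 at other pseudocounts. The fit with treatment and sex is the paired one, and it has 1 residual degree of freedom.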

Other observations

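The receptor gene of neuromedin B, Nmbr (NCBI Gene 25264), was looked at after its values had been seen and was not tested. Its FPKM was 1.70 and 0.29 in the male control and BPA libraries and 2.49 and 0.95 in the female ones, so both BPA libraries were below both controls, also in males, where Nmb itself had 2.52 and 1.99.

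Olfactory receptor genes, a list made after the data were seen, are the receptors of the sensory neurons in the nose. Of 200 such genes, 99 were listed in the male libraries and 125 in the female ones, so that counts and sums do not cover the same genes in each sex. Of the 99, 60 were above 0.01 FPKM in control male and 48 in BPA male, and of the 125, 67 were in control female and 66 in BPA female. They summed to 7.67, 6.44, 9.52 and 10.5 FPKM in that order, and 0 of them reached a mean FPKM of 1. The most abundant was Olr337 in every library, with 0.60, 0.85, 0.62 and 0.62 FPKM.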
